A study of Mus musculus with 4 samples.

Results

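Clustered replication-dependent histone genes were taken as the protein-coding genes of GENCODE vM21 whose symbols begin with Hist1h, Hist2h, Hist3h or Hist4h. There were 67 such genes among 21951 protein-coding genes. *Hist1* held 54 of them on chromosome 13, in a first block of 23 genes (chr13:21715763-22043676) and a second block of 31 genes (chr13:23531050-23934851). *Hist2* held 10 genes on chromosome 3 (chr3:96219865-96270132), *Hist3* 2 genes on chromosome 11 (chr11:58948920-58956830), and *Hist4* 1 gene on chromosome 6 (chr6:136801553-136804415). By product, 6 encode linker histone H1, 18 H2A, 18 H2B, 12 H3 and 13 H4. Coordinates are those of GRCm38, which is the same build as mm10.

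ATAC-seq was used, in which the transposase Tn5 cuts open DNA, so that the sequenced fragments pile up in peaks where chromatin is accessible. Aortic nuclei were taken at P60 from control (Col3a1+/+) mice and from VEDS (Col3a1G938D/+) mice, a model of vascular Ehlers-Danlos syndrome that carries 1 mutant allele of the type III collagen gene. There were 4 libraries, a control female, a control male, a VEDS female and a VEDS male, each made from 2 mice with a single-cell kit and analyzed in aggregate, so that a peak does not show in which cells the DNA was open. Each combination of genotype and sex had 1 library, and each genotype 2.

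Replication-dependent histone genes supply the core and linker histones that package newly copied DNA. They are expressed mainly during S phase, lack introns, and give mRNAs that end in a conserved stem-loop in place of a poly(A) tail. Stem-loop binding protein acts on that end, and NPAT, which gathers at the clusters in a nuclear structure named the histone locus body, activates transcription. H2A and H2B genes often lie head to head and share the DNA between them. Most cells of an adult aorta are not dividing.

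The lists of peaks differed widely in length, and this bears on every result. The control female list held 21176 peaks and the control male list 1236, while the VEDS female list held 504 and the VEDS male list 41444. The median peak had 14, 7, 6 and 22 fragments at its summit, in the same order. In the control male list 859 of 1236 peaks lay mostly in masked repeats, against 862 of 21176 in the control female list. A gene without a peak in a short list was not taken as closed. The long lists are those of a control female and a VEDS male, so that genotype, sex and list length cannot be told apart between them. The aorta label was checked against marker genes. The smooth muscle genes *Acta2*, *Myh11*, *Tagln* and *Cnn1* had a peak in each of the long lists, those of the control female and VEDS male. The endothelial *Pecam1* and *Cdh5*, the fibroblast genes *Pdgfra* and *Dcn*, the liver gene *Alb* and the neuronal gene *Rbfox3* had none in any list.

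Sequences of GRCm38 before the annotated transcript starts show how these promoters are built, and 8 were chosen because a result turns on each. Capitals mark a match on either strand to TATAAA (the TATA box), CCAAT (a box bound by NF-Y), ATTTGCAT (octamer, bound by the factor encoded by *Pou2f1*), TTTCCCGC, TTTCGCGC, TTTGCCGC or TTTGGCGC (E2F), AAACACA (H1 box) and GGTCCG (core of H4 site II, bound by HINFP). The first pair below had the highest H2A and H2B peaks, and the pair after it had no peak in any list. Both are given on the plus strand, from the start of the gene on the minus strand to the start of the gene on the plus strand (chr13:23683949-23684198 and chr13:23574197-23574380).
Hist1h2ac/Hist1h2bc: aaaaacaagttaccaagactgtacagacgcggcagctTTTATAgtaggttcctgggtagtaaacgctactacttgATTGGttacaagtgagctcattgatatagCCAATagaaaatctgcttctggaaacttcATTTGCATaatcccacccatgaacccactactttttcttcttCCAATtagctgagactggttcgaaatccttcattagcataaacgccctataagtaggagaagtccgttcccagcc
Hist1h2bf/Hist1h2ad: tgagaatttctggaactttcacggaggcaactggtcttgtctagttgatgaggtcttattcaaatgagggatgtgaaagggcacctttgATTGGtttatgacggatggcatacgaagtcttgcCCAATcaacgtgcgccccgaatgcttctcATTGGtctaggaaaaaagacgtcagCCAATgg

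The next 6 are the 200 bases before the transcript start, on the strand of the gene. *Hist1h4c* (chr13:23698455-23698654, minus strand) had the peak of highest −log10 q of all members, and *Hist4h4* (chr6:136804416-136804615, minus strand) had a peak in the VEDS male list alone. *Hist1h4a* (chr13:23761231-23761430, minus strand) held 3 E2F matches. *Hist1h1c* (chr13:23738608-23738807, plus strand) had peaks in both long lists, and *Hist1h1t* (chr13:23695614-23695813, plus strand), the H1 gene of the testis, had none. *Hist1h3d* (chr13:23575563-23575762, plus strand) was an H3 gene without a peak.
Hist1h4c: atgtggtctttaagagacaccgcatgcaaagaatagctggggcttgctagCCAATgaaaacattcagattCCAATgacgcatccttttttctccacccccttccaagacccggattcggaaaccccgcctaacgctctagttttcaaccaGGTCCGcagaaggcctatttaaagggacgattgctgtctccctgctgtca
Hist4h4: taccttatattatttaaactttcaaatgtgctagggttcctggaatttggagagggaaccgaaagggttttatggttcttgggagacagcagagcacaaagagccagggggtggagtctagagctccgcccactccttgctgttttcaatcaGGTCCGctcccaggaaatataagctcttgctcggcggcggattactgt
Hist1h4a: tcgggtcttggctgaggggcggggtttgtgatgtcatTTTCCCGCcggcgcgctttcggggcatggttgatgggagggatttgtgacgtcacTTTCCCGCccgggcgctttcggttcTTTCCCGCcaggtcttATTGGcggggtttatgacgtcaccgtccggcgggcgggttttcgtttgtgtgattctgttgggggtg
Hist1h1c: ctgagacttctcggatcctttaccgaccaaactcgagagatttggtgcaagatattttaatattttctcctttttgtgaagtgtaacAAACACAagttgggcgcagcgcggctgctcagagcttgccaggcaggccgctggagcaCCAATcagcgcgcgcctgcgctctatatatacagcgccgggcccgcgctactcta
Hist1h1t: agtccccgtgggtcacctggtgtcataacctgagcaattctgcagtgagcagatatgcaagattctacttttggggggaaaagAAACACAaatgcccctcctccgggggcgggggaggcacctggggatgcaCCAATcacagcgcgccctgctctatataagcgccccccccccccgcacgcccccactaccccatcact
Hist1h3d: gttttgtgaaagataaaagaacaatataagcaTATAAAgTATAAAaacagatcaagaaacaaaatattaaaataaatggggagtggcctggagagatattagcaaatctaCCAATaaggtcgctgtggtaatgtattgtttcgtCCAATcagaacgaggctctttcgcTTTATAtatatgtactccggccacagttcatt

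A peak within 1 kb of the gene was listed for most histone genes in the long lists and for few in the short ones. In the control female list 44 of 67 members had a peak (65.7%, 95% Wilson interval 53.7% to 75.9%), against 50.8% of all protein-coding genes. In the VEDS male list 55 of 67 had one (82.1%, 71.3% to 89.4%), against 62.0% of all protein-coding genes. Histone genes are short, with a median span of 539 bases against 17403 for all protein-coding genes, so that this window gives longer genes more room. Within 1 kb of the transcript start, which does not grow with length, 42 members had a peak in the control female list (62.7%, against 41.4% of all genes). In the VEDS male list 53 did (79.1%, against 51.6%). With the gene span alone, 32 members had a peak in the control female list (47.8%, against 47.0% of all genes) and 46 in the VEDS male list (68.7%, against 59.6%). The intervals cover counting error only, and neighbouring members often shared a peak.

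All 44 members with a peak in the control female list also had one in the VEDS male list. A further 11 had a peak in the VEDS male list alone, and 12 had none in either. When the VEDS male list was cut to its 21176 highest peaks, the length of the control female list, 51 members kept a peak (76.1%, against 53.0% of all genes). The 36 peaks at members of the control female list all overlapped a peak of the VEDS male list. Their summits, the points of most fragments, lay a median of 30.5 bases apart, and 28 of the 36 pairs lay within 50 bases. The VEDS male peak was the wider in 34 of these 36 pairs, in a library with more fragments per peak. The VEDS male list is also the longer. Such overlap was not counted over all genes or peaks, so these values do not set histone genes apart. The short lists gave 2 members for the control male, where 2.49% of all genes had a peak, and 3 for the VEDS female, where 1.77% did. The mean number of members with a peak was 23 over the control libraries and 29 over the VEDS libraries, and the values of the genotypes overlapped. A two-sided exact permutation test over the 2 libraries of each genotype gave p = 0.667, where the smallest p this design allows is 0.333. The counts went with list length, and each genotype had a long and a short list, so that the test cannot speak to genotype.

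**Figure D1:**
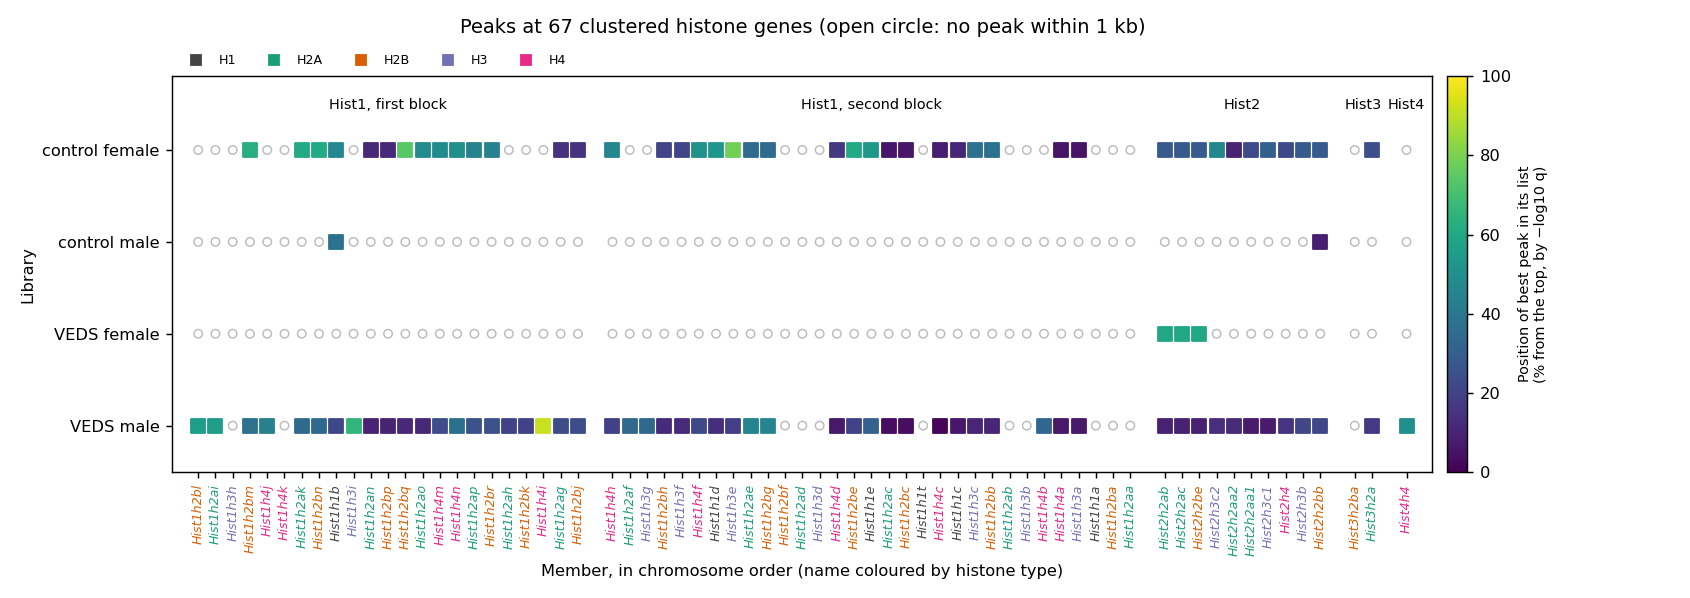
Best peak of each of the 67 members (x axis, in chromosome order, names coloured by histone type) in each of the 4 libraries (y axis). Squares mark a peak within 1 kb and are coloured by its position in its list, from the top (0%) to the bottom (100%) by −log10 q, and open circles mark no peak. Filled squares number 44, 2, 3 and 55 from the top row to the bottom row.

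Shares by cluster and histone type rested on few genes and had wide intervals. All 10 *Hist2* members had a peak in both long lists. In *Hist1*, 33 of 54 had a peak in the control female list and 43 of 54 in the VEDS male list. The first block gave 14 and 21 of 23, and the second block 19 and 22 of 31. By type, a peak was listed for 4 of 6 H1 genes in each long list, and for 12 and 15 of 18 H2A genes. It was listed for 13 and 15 of 18 H2B genes, 7 and 9 of 12 H3 genes, and 8 and 12 of 13 H4 genes. The intervals of the 5 types overlapped in each list, as in the plot of shares by group.

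**Figure D2:**
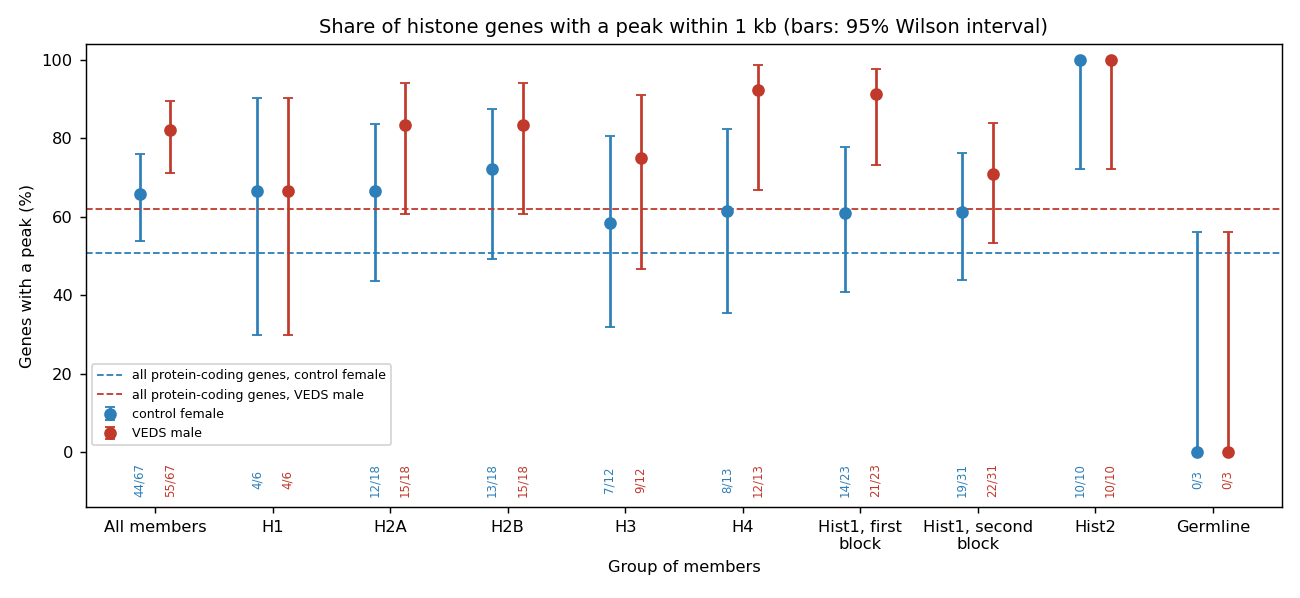
Share of members with a peak within 1 kb (y axis, percent) by histone type, by cluster or block, and for the germline members (x axis), with the number of genes under each point. Points are shares in the control female (blue) and VEDS male (red) lists, bars are 95% Wilson intervals, and dashed lines are the shares of all protein-coding genes, 50.8% and 62.0%. *Hist2* stands at 10 of 10 in both lists and the germline genes at 0 of 3.

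*Hist3* and *Hist4* are small clusters, and their members differed. *Hist3h2a* (chr11:58954685-58956830) had the widest peak at a member in the control female list, 703 bases, with −log10 q of 15.2 and 19 fragments. Its VEDS male peak was 881 bases wide, with −log10 q of 31.6 and 44 fragments. The neighbouring *Hist3h2ba* (chr11:58948920-58949533) had no peak in any list. *Hist4h4* (chr6:136801553-136804415) had a peak of 130 bases in the VEDS male list (−log10 q 11.4, 27 fragments) and none elsewhere.

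The 12 members without a peak in any list were spread over the types. They were the H1 genes *Hist1h1a* and *Hist1h1t*, the H2A genes *Hist1h2aa*, *Hist1h2ab* and *Hist1h2ad*, the H2B genes *Hist1h2ba*, *Hist1h2bf* and *Hist3h2ba*, the H3 genes *Hist1h3b*, *Hist1h3d* and *Hist1h3h*, and the H4 gene *Hist1h4k*. Several of them are neighbours, such as *Hist1h2bf*, *Hist1h2ad* and *Hist1h3d*, or *Hist1h2ab* and *Hist1h3b*. *Hist1h1t*, *Hist1h2ba* and *Hist1h2aa* encode histones of the male germline, and none of the 3 had a peak in any library. A count of 0 of 3 has a Wilson interval of 0% to 56.1%. The 64 other members had intervals of 56.6% to 78.8% in the control female list and 75.4% to 92.4% in the VEDS male list. *Hist1h2ba* and *Hist1h2aa* lie head to head, and many other members shared a peak. The genes are thus not independent, the intervals cannot serve as a comparison, and the difference was not tested. Of the 12, 10 had promoters in which every 50-base window was found once in the genome.

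The 11 members with a peak in the VEDS male list alone included 4 H4 genes of *Hist1* and *Hist4*, *Hist1h4j*, *Hist1h4i*, *Hist1h4b* and *Hist4h4*. The others were the H2A genes *Hist1h2ai*, *Hist1h2ah* and *Hist1h2af*, the H2B genes *Hist1h2bl* and *Hist1h2bk*, and the H3 genes *Hist1h3i* and *Hist1h3g*. Their peaks ranged widely. *Hist1h4i* had the lowest of all members in that list, 126 bases wide with −log10 q of 3.38 and 12 fragments, 91.7% of the way down the list. The peak shared by *Hist1h2ah* and *Hist1h2bk* was 453 bases wide with −log10 q of 28.3 and 32 fragments, in the upper 19.9%. *Hist1h3i* (65.4%) and the shared peak of *Hist1h2bl* and *Hist1h2ai* (55.2%) lay in the lower part of the list.

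In the short lists, the control male peaks were at *Hist1h1b* and *Hist2h2bb*. The *Hist1h1b* peak was 266 bases wide, with −log10 q of 4.94 and 8 fragments. The peak beside *Hist2h2bb* was 2141 bases wide with −log10 q of 13.1 and 17 fragments, and 98.9% of its bases were masked repeats. A masked peak 1314 bases wide stood at the same place in the VEDS male list (98.2% masked), and it was the widest at a member there. The VEDS female list had 1 peak at members, 282 bases wide with 6 fragments and −log10 q of 2.75. It lay over the start of *Hist2h2be* and within 1 kb of *Hist2h2ab* and *Hist2h2ac*. Within 1 kb of the transcript start, 2 members had a peak in each short list, against 1.22% of all genes for the control male and 1.23% for the VEDS female.

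Peaks at histone genes had widths near those of other promoters. The median width over the 36 peaks of the control female list was 274.5 bases (95% interval of the median 208 to 331), against 290 for peaks within 1 kb of any transcript start. Over the 50 peaks of the VEDS male list it was 386 bases (296 to 435), against 406. The median peak at members stood at 41.1% from the top of the control female list (95% interval of the median 23.6% to 49.7%), against 30.5% for peaks within 1 kb of any start. These values were 21.5% (17.1% to 32.7%) and 23.4% in the VEDS male list. The best peak of a member within 1 kb of its start stood at a median of 28.4% from the top of the control female list, and that of all genes at 27.8%. These medians were 19.9% and 18.6% in the VEDS male list. Summits at members had a median of 17 fragments (8 to 37) in the control female list and 39.5 (12 to 91) in the VEDS male list. Fragments were not compared between libraries.

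Few of all genes had a peak among the very highest of the long lists. Counts of members there were too small to set histone genes apart from all genes. Among the 504 highest peaks of each list, the length of the shortest, 0 members had a peak in the control female list and 1 in the VEDS male list, against 2.46% and 2.47% of all genes. That member was *Hist1h4c* (chr13:23697635-23698454), an H4 gene. Its VEDS male peak had −log10 q of 85.9 and 91 fragments over 421 bases, in the upper 0.912% of the list. Its control female peak had −log10 q of 24.8 and 28 fragments over 314 bases, in the upper 8.20%. Next in the VEDS male list came the shared peak of *Hist1h2ac* and *Hist1h2bc*, with −log10 q of 65.4 and 73 fragments (3.36%). In the control female list that peak had −log10 q of 28.0 and 30 fragments (5.56%). The highest peak of the control female list at members lay between *Hist1h4a* and *Hist1h3a*, before the coding start of the former, with −log10 q of 28.4 and 36 fragments (5.32%). Its VEDS male counterpart had −log10 q of 51.5 and 73 fragments (6.61%). *Hist1h1c* was the highest H1 gene, at 10.7% and 5.94% of the lists. The lowest members of the control female list were *Hist1h3e* (78.5%), *Hist1h2bq* (73.8%) and *Hist1h2bm* (62.7%). *Hist1h3e* stood at 18.2% in the VEDS male list and *Hist1h2bq* at 11.2%, so that the order of members was not the same in both lists.

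Divergent pairs were examined because an H2A and an H2B gene can share 1 open region. There were 12 pairs with coding starts facing apart and within 1 kb, all of an H2A with an H2B gene. Between their coding starts lay 278 to 334 bases (median 299). The H2B gene *Hist1h2bh* and the H3 gene *Hist1h3f* also face apart, with coding starts beyond this limit, and were not counted. A peak lay between the starts of 8 pairs in the control female list and 10 in the VEDS male list. The VEDS female list had 1, at *Hist2h2ac*/*Hist2h2be*, and the control male list 0. In all of these pairs the summit lay between the coding starts. The peak reached over both coding starts in 1 pair in the control female list and in 6 in the VEDS male list. At *Hist1h2ac*/*Hist1h2bc*, printed above, the peak was 309 and 531 bases wide in the 2 long lists, against 314 bases between the coding starts. *Hist1h2bl*/*Hist1h2ai*, the closest pair at 278 bases, had a VEDS male peak 397 bases wide. *Hist1h2bf*/*Hist1h2ad*, also printed, and the germline pair *Hist1h2ba*/*Hist1h2aa* had no peak. Both unpeaked pairs held CCAAT boxes.

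Most summits at histone genes lay before the coding start. Coding starts were used after seeing the data, because 13 members have no annotated 5′ leader and *Hist1h2be* has one that spans 35168 bases. Of the peaks with a summit within 1 kb of a coding start, 30 of 33 had it before the start in the control female list (median −105 bases) and 41 of 47 in the VEDS male list (median −110 bases). The summit was within 250 bases before the coding start in 28 and 38. From transcript starts the medians were −87 and −87.5 bases, with 29 of 33 and 39 of 46 summits before the start. For all peaks within 1 kb of a transcript start they were −48 and −41 bases, with 72.0% and 69.0% before the start.

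Several H1 genes had their highest peak after the coding end. In each long list 4 of 6 H1 genes had a summit 500 to 1500 bases after their coding start and nearest to their own, which was 66.7% (Wilson interval 30% to 90.3%). Of all protein-coding genes 1.22% had such a summit in the control female list and 3.13% in the VEDS male list. No H2A, H2B or H3 gene had one in either list. Of 13 H4 genes, *Hist2h4* had one in both lists (922 and 902 bases after) and *Hist1h4h* in the VEDS male list (589 bases). This window was chosen after the positions were seen, and the difference between types was not tested.

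The 4 H1 genes with such a summit were *Hist1h1b*, *Hist1h1c*, *Hist1h1d* and *Hist1h1e*, which encode somatic linker histones. At *Hist1h1c* the summit lay 956 bases after the coding start in the control female list and 944 in the VEDS male list. That is 321 and 309 bases after the coding end, where the stem-loop stands at 28 bases. At *Hist1h1d* the 2 summits were 1128 and 1129 bases after the coding start. At *Hist1h1b* they were 1103 and 1090 bases after it, and the control male list had its peak there as well, at 1079 bases. At *Hist1h1e* they were 812 and 814 bases after it, with a further summit at 1299 bases in the control female list. The summits at *Hist1h1b*, *Hist1h1c* and *Hist1h1d* were at least 3895 bases from any transcript start of another annotated gene. Those of *Hist1h1e* were 561 and 559 bases from the distant annotated start of *Hist1h2be*, and the further summit was 74 bases from it. The summits at *Hist1h1b* lay 432 and 419 bases after the end of the annotated gene in the long lists, while those of the other 3 genes lay inside the annotated gene.

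In the VEDS male list these were the highest peaks of the 4 genes, and in the control female list those of 3, since *Hist1h1e* had a higher peak before its coding start there (13 against 10 fragments). In the VEDS male list that of *Hist1h1c* had −log10 q of 53.8 and 67 fragments over 707 bases. The peak before its coding start had −log10 q of 11.6 and 27 fragments over 178 bases. *Hist1h1b* and *Hist1h1d* had no listed summit within 500 bases before the coding start in either long list. In the VEDS male list their peaks after the coding end had 36 and 48 fragments. *Hist1h1e* had summits on both sides in both lists. *Hist1h1a* and the germline *Hist1h1t* had neither.

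**Figure D3:**
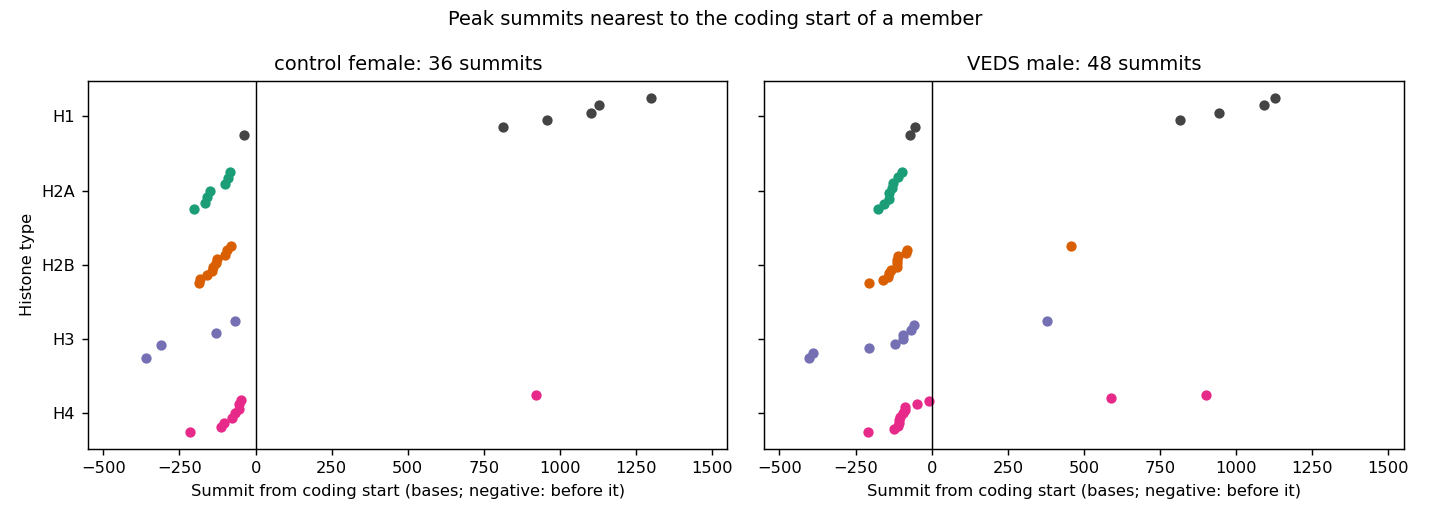
Distance of each peak summit from the nearest coding start (x axis, bases, negative before the start) for summits whose nearest coding start is that of a member, by histone type (y axis), in the control female and VEDS male lists. Each point is 1 peak, spread vertically within its row for legibility. Most points of H2A, H2B, H3 and H4 genes lie before 0, and points of 4 H1 genes lie 812 to 1299 bases after it. H1 points also lie before 0 at *Hist1h1e* (−37 and −56 bases) and, in the VEDS male list, at *Hist1h1c* (−71 bases). H4 points lie after 0 at *Hist2h4* (922 and 902 bases) and, in the VEDS male list, at *Hist1h4h* (589 bases).

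Much of the coding sequence of the core histone genes occurs more than once in the genome, and less of that of H1 genes. The share of 50-base windows of the coding sequence found elsewhere in the genome had a median of 75% over members. It was 11% for H1, 84.2% for H2A, 79.6% for H2B, 85.4% for H3 and 71.2% for H4 genes, and 100% in 12 members. Promoters were mostly unique. In the 300 bases around the transcript start, 52 members had no repeated window and 10 had more than 50% repeated. They include the pairs *Hist1h2bq*/*Hist1h2ao* and *Hist1h2ap*/*Hist1h2br*, and *Hist2h2aa1* with *Hist2h2aa2*. All 10 had a peak in both long lists, and their values cannot be assigned to 1 copy. Peaks covered a median of 0% of a member's coding sequence in the control female list and 8.46% in the VEDS male list. How reads with several placements were handled is not given in the sources used here, and the part of repeated sequence in these values was not tested.

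Promoter motifs were counted from 250 bases before to 50 after the transcript start and set beside all 21951 protein-coding promoters. A CCAAT box stood in 56 of 67 members (83.6%, against 38.5% of all promoters) and a TATA box in 37 (55.2%, against 12.7%). An octamer stood in 15 (22.4%, against 1.67%) and an E2F match in 12 (17.9%, against 2.86%). An H1 box stood in 9 (13.4%, against 6.33%), and the site II core in 15 (22.4%, against 10.5%). The GC box GGGCGG, bound by SP1, stood in 31 (46.3%, against 45.4%). With the window set at the coding start, the GC box stood in 37 (55.2%, against 32.65%). From 500 bases before the transcript start to 100 after, it stood in 45 (67.2%, against 51.6%) and the H1 box in 11 (16.4%, against 14.2%). How these motifs stood beside all promoters thus depended on the window. Divergent pairs share sequence, so that these promoters are not independent. Some motifs can also overlap each other.

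Motif content varied by histone type. All 18 H2A and all 18 H2B promoters held a CCAAT box, as did 11 of 12 H3 and 5 of 6 H1 promoters, but only 4 of 13 H4 promoters. The H1 and H3 genes without one, *Hist1h1d* and *Hist1h3f*, have transcript starts annotated 1828 and 433 bases before the coding start. With the window at the coding start, 6 of 6 H1, 12 of 12 H3 and 4 of 13 H4 promoters held a CCAAT box. The TATA box stood in 4 H3 promoters at the transcript start and in 8 at the coding start. Octamers stood in 7 H2A and 8 H2B promoters and in none of the other types. The site II core was in 12 of 13 H4 promoters and in 3 of the other members. The H1 box was in 4 of 6 H1 promoters, and in 5 of 6 with the window at the coding start. E2F matches were in 5 H2A, 4 H2B and 3 H4 promoters, including *Hist1h4a*.

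**Figure D4:**
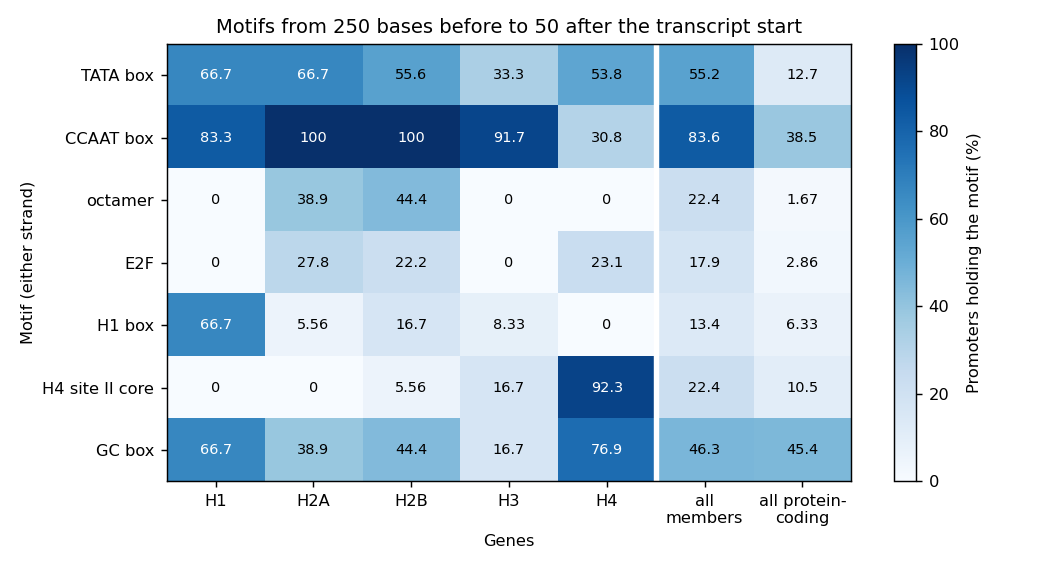
Share of promoters (percent, colour and number in each cell) that hold each motif (y axis) on either strand, for each histone type, for all 67 members and for all 21951 protein-coding genes (x axis). The CCAAT box reaches 100% in H2A and H2B genes, and the site II core 92.3% in H4 genes, where the CCAAT box falls to 30.8%. The window is at the annotated transcript start. At the coding start the CCAAT box also reaches 100% in H1 and H3 genes.

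By type, several motifs stood in narrow bands, including the site II core of H4 genes and the H1 box of H1 genes. In the 300 bases before the coding start, the site II core of 12 H4 genes stood 55 to 85 bases before it (median 80), always on the strand of the gene. The H1 box of 5 H1 genes stood 154 to 188 bases before it, with a CCAAT box nearer to the start at 96 to 124 bases in all 6. In *Hist1h1c* and *Hist1h1t*, printed above, the H1 box and CCAAT box stand in this order. Over all 11 members with an H1 box there, the nearest stood 19 to 251 bases before the coding start. The nearest CCAAT box had a median distance of 106 bases in H2A (91 to 130), 109.5 in H2B (100 to 183) and 85 in H3 genes (67 to 175). On the gene's own strand, the nearest TATA box stood 57 to 86 bases before the coding start in 11 H2A genes. It stood 68 to 94 bases before it in 4 H2B genes and 82 to 99 in 4 H1 genes. The range was wider in 8 H3 genes (51 to 200 bases) and 8 H4 genes (51 to 275). H2A genes had 54 CCAAT matches in all and H2B genes 59. Octamers ran on the gene's own strand in 9 H2B genes (79 to 164 bases before the coding start) and on the other strand in 7 H2A genes. In 5 divergent pairs the octamer was counted for both genes. Over the 58 genes that held one there, the nearest CCAAT box stood at a median of 108 bases before the coding start. The distance from summit to CCAAT box was not measured gene by gene. A match is a string of letters and not a measured binding site.

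**Figure D5:**
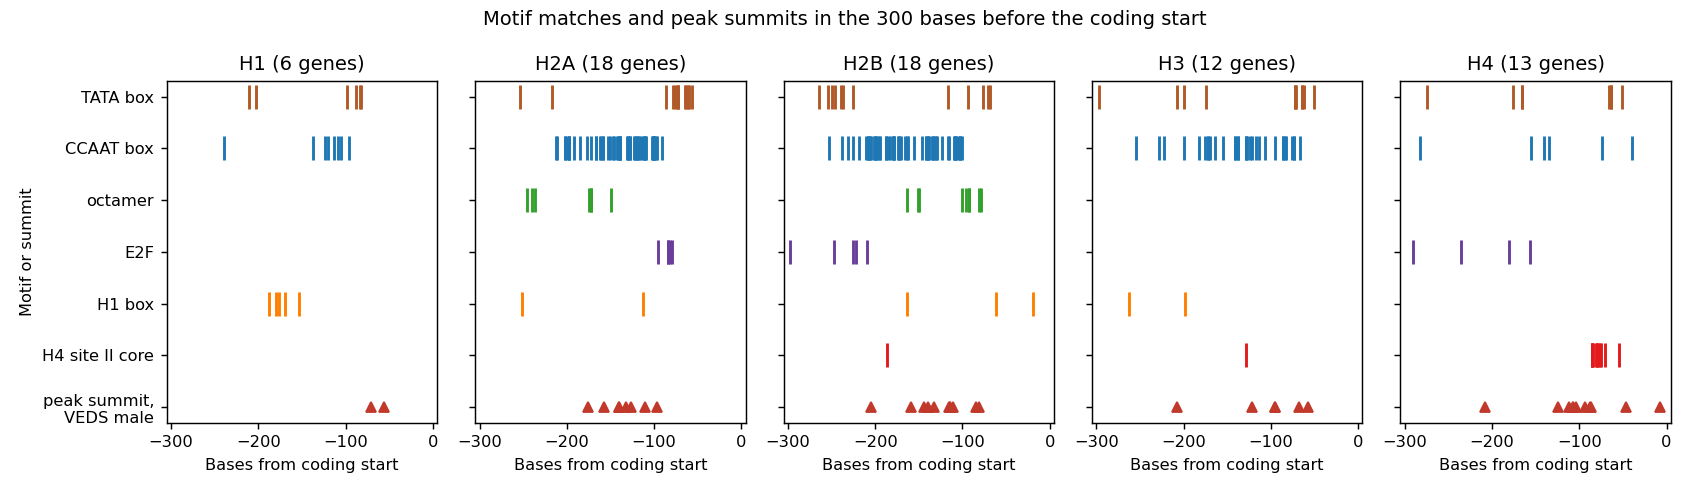
Motif matches on either strand (ticks) and VEDS male peak summits (triangles) in the 300 bases before the coding start (x axis, bases), with 1 panel for each histone type and 1 row for each motif. The site II core of H4 genes falls in a band 55 to 85 bases before the start, and the H1 box of H1 genes in a band 154 to 188 bases before it.

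Motif content of members with and without a peak is given as a description, with no test. The 12 members without a peak in the VEDS male list held a CCAAT box in 11 (91.7%) and a TATA box in 10 (83.3%). Of the 55 with a peak, 45 held a CCAAT box (81.8%) and 27 a TATA box (49.1%). The site II core was in 1 of the 12 and in 14 of the 55, where 12 of the 13 H4 genes had a peak. *Hist1h3d*, printed above, held 2 CCAAT boxes and TATA boxes and had no peak.

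Nearly all members held the 3′ stem-loop. Within 150 bases after the coding end, 65 of 67 members held a 16-base stem-loop, with 6 paired bases and a loop of 4, beginning 25 to 62 bases after it (median 34). Of the 21884 other protein-coding genes 8 did (0.0366%). *Hist1h2an* and *Hist2h2be* had no match in this window. The 3 most common forms are given to show how little the element varies, with the paired bases in capitals and the loop in lower case. They were found in 41, 9 and 8 members in the order given.
form 1: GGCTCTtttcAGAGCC
form 2: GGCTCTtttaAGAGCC
form 3: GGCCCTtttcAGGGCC

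Genes outside the clusters were compared from lists of related function. Of 11 replacement and solitary histone genes, many of which are expressed outside S phase, 9 had a peak in the control female list and 11 in the VEDS male list. For all protein-coding genes the shares were 50.8% and 62.0%. *H2afv* had the highest, in the upper 1.5% and 1.19% of the lists, and *H1fx* and *H2afy2* had none in the control female list. All 13 regulators of histone genes had a peak in both long lists. Within 1 kb of the transcript start 12 had one in each, and *Pou2f1* had none there. *Npat* stood at 3.23% and 0.579%, *Casp8ap2* at 1.72% and 0.183%, *Hinfp* at 7.30% and 0.263%, and *Slbp* at 8.70% and 6.97%. Of 24 proliferation genes 22 and 23 had a peak. *Tyms* had none in either list and *Rrm2* none in the control female. The median position of the best peak at the start was 10.1% for replacement histones, 7.32% for regulators and 9.71% for proliferation genes in the VEDS male list, against 19.9% for the clustered genes. In the control female list these medians were 26.0%, 10.8% and 16.8%, against 28.4%. The medians over all genes, 18.6% in the VEDS male and 27.8% in the control female list, were near those of the clustered genes. These lists were chosen with earlier results known and no difference between them was tested. None of their genes had a peak in a short list.

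The spans of the clusters also hold other genes. From the first to the last member of each cluster lie 50 protein-coding genes that are not members. Of the 50, 6 had a peak in the control female list and 7 in the VEDS male list. The *Hist1* span includes the stretch between its 2 blocks. Outside that stretch lie 10 of the 50, of which 3 and 2 had a peak. Among 36 vomeronasal receptor genes, which are used by sensory neurons of the nose, 0 and 2 had one. Most of these 36 lie between the 2 *Hist1* blocks. Of the 14 others 6 and 5 did.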

How the data were processed

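ATAC-seq peaks of P60 aortic nuclei were analyzed in 4 libraries. The authors aligned reads to mm10, called narrow peaks with MACS2 for each library and deposited, per peak, a score, a fold enrichment (a ratio of fragments at the summit to the background estimated nearby), −log10 p and −log10 q values and the summit. The aligner is not given in the sources used here. Peaks were matched to GENCODE vM21, using the principal transcript of each gene, and at least 1 base of overlap counted. Fragments at a summit were recovered from the deposited fold enrichment and −log10 p for 98.9% to 99.9% of peaks, with medians of 6 to 22 per library. The total number of fragments per library was not used here. Peaks were ranked within their own list by −log10 q. Sequence came from the RefSeq copy of GRCm38, and masked bases are its lower-case letters. Windows of 50 bases were called repeated when they, or their reverse complement, occurred elsewhere in that genome, which was tested on simulated sequence.

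The histone genes, the other gene lists and the motifs were chosen with earlier results of these data known. All members were counted, and those named were members in a short list, with a peak in 1 long list or in none, of highest and lowest position or widest peak, all *Hist3* and *Hist4* and germline members, and the pair of shortest distance. The number of members with a peak was compared between genotypes by an exact permutation test over 2 libraries each, added after seeing the data, and no enrichment test was made. Shares have 95% Wilson intervals. Alternatives were other regions, overlaps, thresholds, list lengths, masking, promoter windows and ranking. Distances from the coding start were an alternative chosen after seeing the data. Scripts ran in Python 3.11.15 (matplotlib 3.10.9, numba 0.67.0, numpy 2.4.6, pandas 2.3.3, pysam 0.24.0, scipy 1.17.1).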

Additional observations from a re-analysis of the deposited data

How the results depend on the processing

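Of 89 alternative values, 76 stayed within 1.5 times the count or, for widths and ranks, within the 95% interval of the median, and 13 moved. This rule judged the values of members alone, and not their standing beside all genes or promoters. Requiring −log10 q of at least 10 left 27 members with a peak in the control female list, against 44, and left 33.8% of all genes with one. Using the 504 highest peaks of each list left 0 members with a peak for the control female and 1 for the VEDS male, against 2.46% and 2.47% of all genes. Within 1 kb of the transcript start, 2 H1 genes had a peak in the control female list, against 4. The other values that moved were in the short lists. In the control male list, 2 members became 0 with the gene span alone, and 1 with the summit inside the region, most of the peak inside it, −log10 q of at least 5, −log10 q of at least 10, or masked peaks left out. In the VEDS female list, 3 members became 1 with the gene span alone, and 0 at −log10 q of at least 5 or of at least 10. The within-window counts at the coding start, added after seeing the data, were 43 and 54 members in the long lists, against 29.9% and 38.1% of all genes. Paired by sex, an exact permutation test of the members with a peak in control against VEDS libraries, added after seeing the data, gave p = 1, where the smallest p it allows is 0.5. It has the same limit, that the counts went with list length. No paired analysis was possible because the groups share no more than 1 replicate number, apart from this pairing by sex. In the short lists a summit had a median of 6 or 7 fragments, and the depth of the libraries was not used here.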
